A study of Mus musculus with 13 samples.

Results

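The 836 regions described here carried no H3K27ac peak in C2C12 cells from 24 h before to 12 h after the change to differentiation medium, and a peak at both 24 h and 72 h. They were selected on the measured peak lists themselves. Peaks of 7 time-course lists (-24, 0, 6, 12, 24, 48 and 72 h) were merged where they overlapped by at least 1 base, which gave 133768 regions, and the 836 members (0.625%) were chosen by the absence of a peak at -24, 0, 6 and 12 h and its presence at 24 and 72 h. The wild-type list at 48 h was not part of this rule but took part in the merging, which affected which regions met the rule. With that list left out of the merging, 983 regions met it. "Gained" below means that a peak appeared in the deposited lists, not that a level was measured.

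C2C12 is a mouse myoblast line that fuses into myotubes in low serum. All groups shared this line and the same protocol: growth in 10% fetal bovine serum, then differentiation medium with 2% horse serum. The edited lines, made with CRISPR/Cas9 and sampled at 48 h, were Myod1_KO, in which MyoD expression was knocked out, H1_KO and H3_KO, each with 1 deleted hotspot (the submitters' name for these regions), H23_KO, made by deleting H3 in the H2 knockout line, and H34_KO, made by deleting H3 in the H4 knockout line. H3_KO, H23_KO and H34_KO therefore all lacked hotspot H3. Unedited cells were sampled at -24, 0, 6, 12, 24 and 72 h and, as WT, at 48 h. The unedited CRISPR control library of the labels was not used here. Each condition had 1 library and each edited line was 1 line, so no test between conditions could be run, and a deletion, its line and its library cannot be told apart. The 95% intervals on shares of regions (Wilson) and on differences of shares (Newcombe) cover counting error only, and neighbouring regions are not independent.

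H3K27ac, acetylation of histone H3 at lysine 27, marks active promoters and enhancers. Enhancers are stretches of DNA that transcription factors bind to raise transcription of genes that may lie far away, and dense groups of them are called super-enhancers. MyoD, the basic helix-loop-helix factor encoded by Myod1, binds many such elements in muscle precursors and recruits the acetyltransferases that deposit this mark. Myoblasts leave the cell cycle, turn on the myogenic programme and fuse during the first days in low serum.

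The lists held between 55585 peaks (Myod1_KO) and 137960 peaks (H1_KO), and 71281 in WT. The other hotspot lists held 103134 (H3_KO), 124609 (H23_KO) and 130473 (H34_KO) peaks. The weakest peak had a −log10 p of 4.02 in Myod1_KO and 3.01 to 3.03 in the hotspot lists, against 4.13 in WT, so a share in one list above a share in another is not by itself a change. The lists at 48 h also came in another format than those at the other times, so format and time cannot be told apart. Read depth was unknown, so −log10 p values printed below for several libraries do not measure a change between them.

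At 24 and 72 h the members were narrow and weak within their lists, a description of the values that chose them. The score of the strongest peak in a member ran from 4.01 to 20.79 at 24 h, with a median of 7.04, against a median of 9.81 over all peaks of that list. At 72 h it ran from 4.28 to 23.64, with a median of 8.11, against 9.44 over the whole list. The median within-list percentile was 25.2 at 24 h and 31.5 at 72 h. No member reached the top 10% of the list at 24 h, and none did at 72 h. Close to the lower end of the lists, 52 members scored under 5 at 24 h (6.22%, against 2.96% of all peaks of that list). At 72 h 18 did (2.15%, against 1.38%). At either time 67 scored under 5, and 769 scored at least 5 at both. Member peaks measured 134 bp (median) at 24 h and 196 bp at 72 h, against 203 and 249 bp over the lists. The summed width of a member's peaks was larger at 72 h than at 24 h in 644 members, smaller in 189 and equal in 3. In 28 members this sum covered 2 or more peaks at 24 h, and in 47 at 72 h. Summed widths at 24 and 72 h were not compared over all regions, and the 72 h list had the larger median peak width.

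Many regions missed the rule by 1 list. A peak at 12 h alone kept out 1148 regions, a number larger than that of the members, with a median score of 8.30 at 12 h and 13 of them under 5. A peak at 6 h alone kept out 145, one at 0 h 136 and one at -24 h 24. A missing 24 h peak kept out 6473 regions, whose median score at 72 h was 6.90, and a missing 72 h peak kept out 4439, whose median score at 24 h was 6.96. Regions with a single late peak thus had a lower median score than the members, which had 8.11 at 72 h and 7.04 at 24 h.

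The merged members had a median width of 315 bp (95% interval 295 to 333) and ran from 128 to 2722 bp. Of them, 45 measured 1000 bp or more (5.38%), against 13.7% of all regions. Over all regions the median was 309 bp. Regions whose first peak came at 12 h and that also had peaks at 24 and 72 h (1148 regions, called 12 h-onset below) had a median of 416 bp, and those with a first peak at 6 h and peaks at every later time used (1036, 6 h-onset) 580 bp. The reverse pattern, with peaks at the 4 early times but at neither late time (3492), had 497 bp, and regions with a peak at all 6 times (25417) had 1097 bp. Median width was larger in classes defined by peaks at more times. Members with a WT peak at 48 h had a median of 526 bp, against 237 bp without one, and the WT peak itself is part of the merged width.

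The next question was whether the members carried a peak at 48 h, the time between those that chose them. In WT, 328 of the 836 members had a peak (39.2%, 36.0 to 42.6), against 47.7% of all regions. The other 508 had a peak at 24 and 72 h but none in the list between them. Both counts depend on the merging: with the 48 h list left out of it, 48.3% of 983 members had a WT peak. Of the 15 combinations of 2 times among the 6, each defined by peaks at those 2 times and none at the other 4, the members had the highest share with a WT peak, and the other 14 had 16.2% to 36.8%. That rank depended on the processing. It was 2 of 15 when the 48 h list was left out of the merging, and 4 of 15 with equally long lists. WT peaks in members ranked in the middle of their list, with a median percentile of 44.6 for −log10 p and 7 members in the top 10%.

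In Myod1_KO, 102 members had a peak (12.2%, 10.2 to 14.6), against 24.8% of all regions. Of the 328 members with a WT peak, 258 had none in Myod1_KO (78.7%, 73.9 to 82.7), against 57.1% of all regions with a WT peak. The Myod1_KO list was the shortest and covered 18.3 Mb, against 45.4 Mb in WT, so a lower share was found over all regions too. The share without a Myod1_KO peak was lower the earlier the onset: 71.6% in 12 h-onset regions and 62.4% in 6 h-onset regions with a WT peak. It was 18.3% in regions with a peak at all 6 times. The members exceeded 12 h-onset regions by 7.08 points (0.969 to 12.9), 6 h-onset regions by 16.2 points (10.1 to 22.0) and regions with a peak at all 6 times by 60.4 points (55.6 to 64.5). After weighting to the members' widths these differences were 4.71, 10.6 and 54.0 points, and after weighting to the −log10 p of their WT peaks they were 6.18, 12.6 and 46.0 points.

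A missing Myod1_KO peak did not set the members apart from other regions seen in few lists. Among the 15 combinations of 2 times, the members' 78.7% ranked 6, and the other 14 ran from 74.2% to 89.7% with a median of 76.6%. The combination of -24 and 0 h, both before differentiation, was at 86.0%. The reverse pattern of 4 early peaks was at 62.8%, which was 15.8 points (10.5 to 20.6) under the members.

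**Figure D1:**
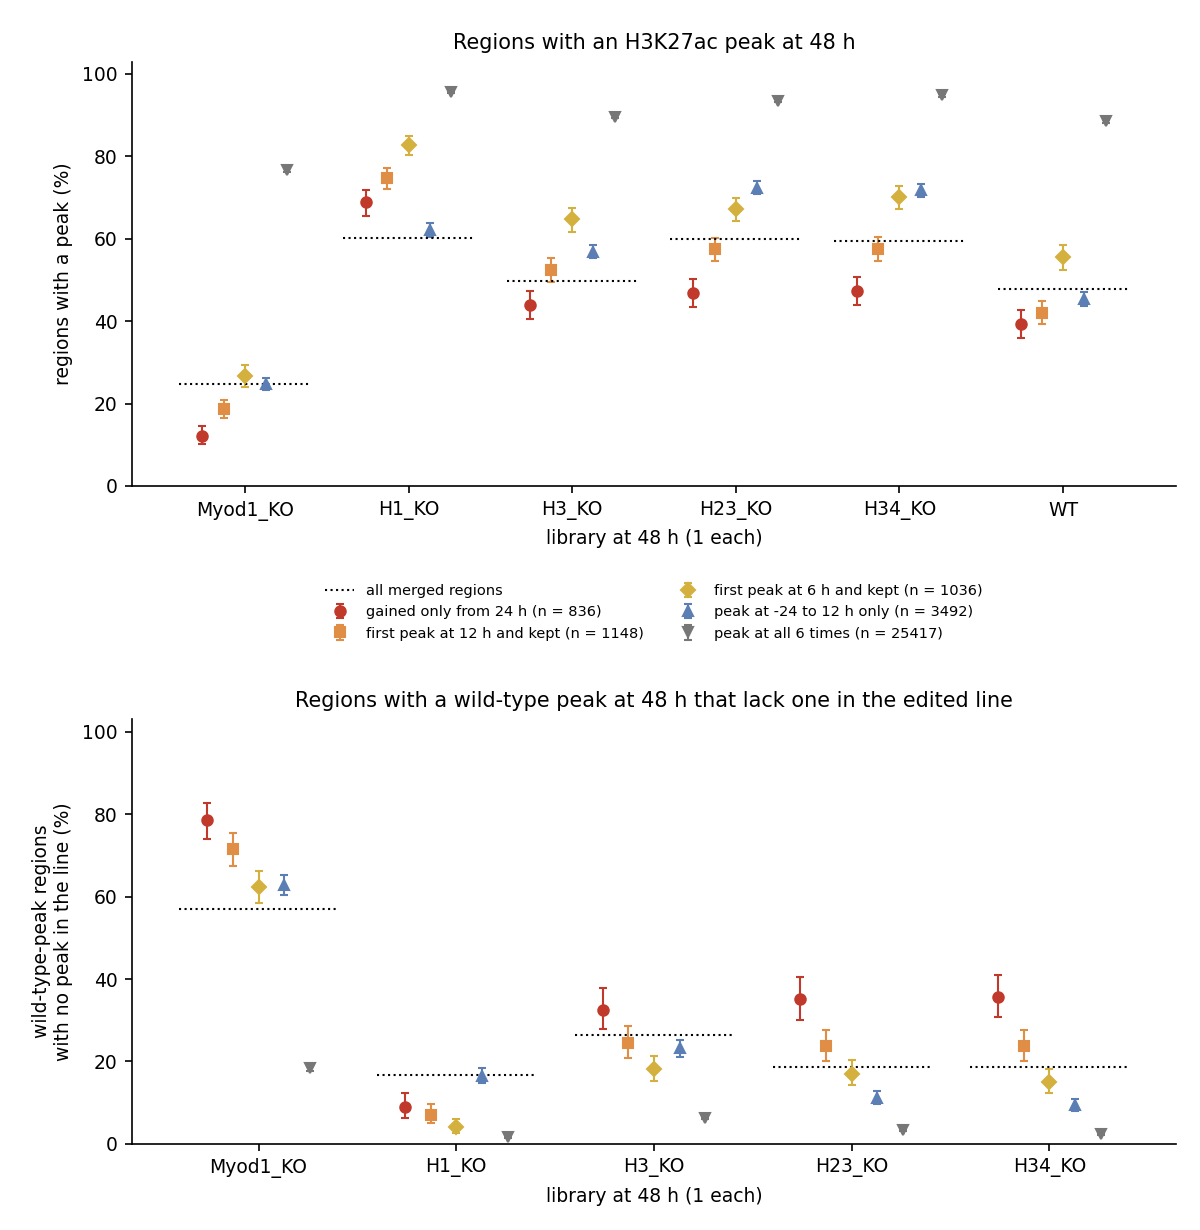
Upper panel, share of regions (%) with an H3K27ac peak in each of the 6 libraries at 48 h; lower panel, share of WT-peak regions (%) without a peak in each edited line. Points are 5 classes of regions with 95% Wilson intervals and dotted lines all regions: the members lie at 12.2% in Myod1_KO and 68.8% in H1_KO (upper), and at 78.7% for Myod1_KO (lower), above the other 4 classes.

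Among the hotspot lines, H1_KO stood apart from the 3 lines that lacked H3. It had a peak in 575 members (68.8%, 65.6 to 71.8), against 60.2% of all regions. The 3 lines that lacked H3 had fewer: 366 in H3_KO (43.8%, 40.5 to 47.2; 49.8% of all regions), 391 in H23_KO (46.8%, 43.4 to 50.2; 59.9% of all regions) and 396 in H34_KO (47.4%, 44.0 to 50.8; 59.4% of all regions). The members were thus above all regions in H1_KO and under them in each H3-deleted line. H1_KO exceeded the mean of the H3-deleted lines by 22.8 points in the members. The other 14 combinations of 2 times ran from -8.67 to 14.3 points, with a median of 2.43. An excess of this kind was shared with the other onset classes: 12 h-onset regions had 74.7% in H1_KO, against a mean of 55.7% in the H3-deleted lines, and 6 h-onset regions had an excess of 15.4 points. It was 3.04 points in regions with a peak at all 6 times, -4.84 points in the reverse pattern and 3.78 points over all regions. The difference between the members and the other onset classes in this excess was not tested.

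With the same number of strongest peaks in every list, the rule chose another set, of 1012 regions. Of these 54.0% had an H1_KO peak and 32.4% to 36.9% one in an H3-deleted line, and the excess over the H3-deleted lines was 18.8 points, against -14.3 to 7.42 points in the other 14 combinations. Under each of the 6 alternatives computed for it, 4 of which re-choose the regions, those with peaks at 24 and 72 h had the largest excess of the 15, at 18.8 to 22.9 points.

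**Figure D2:**
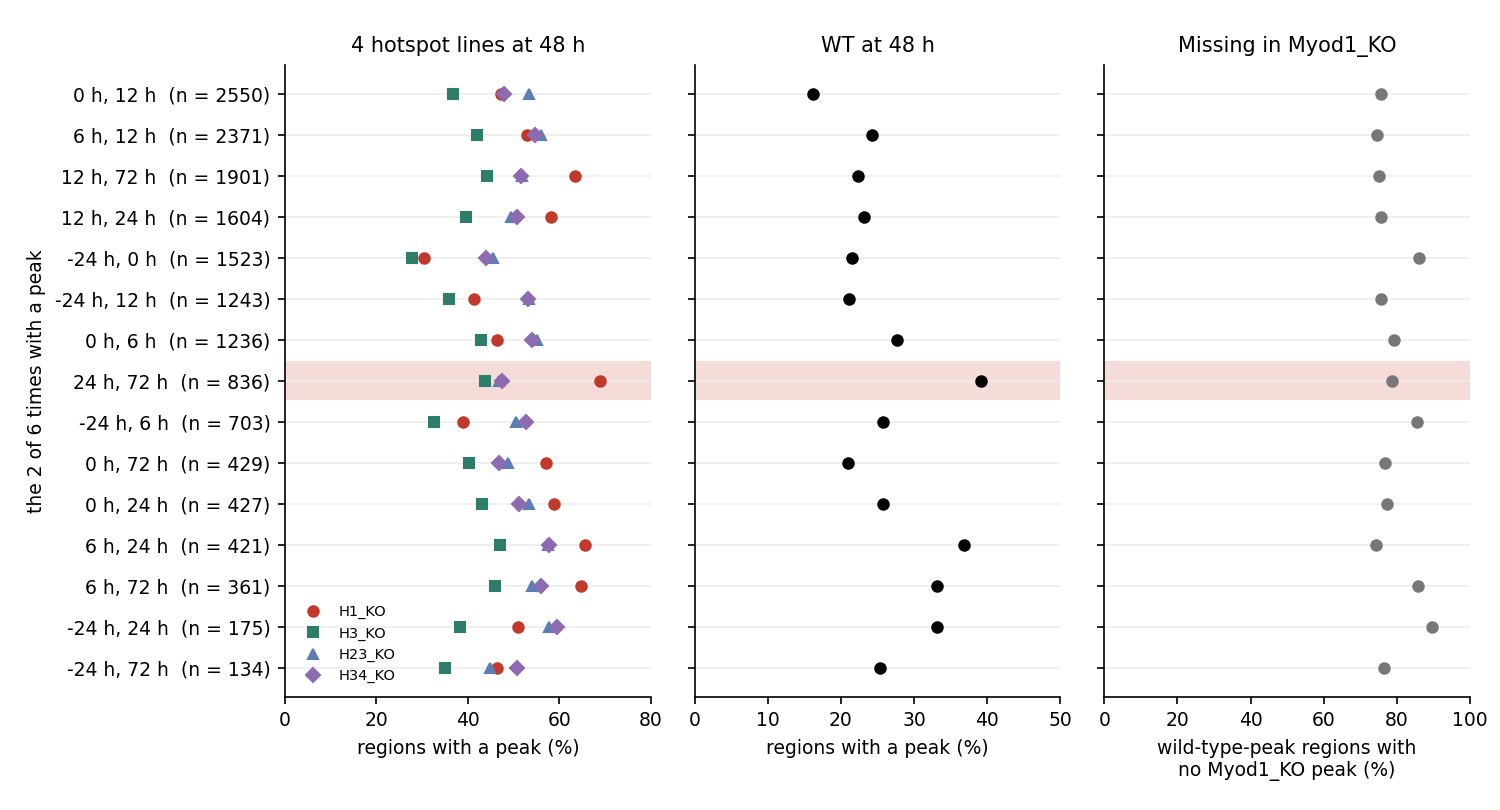
The 15 groups of regions with a peak at 2 of the 6 times (rows, with the number of regions; the members shaded): share (%) with a peak in the 4 hotspot lines at 48 h (left), share (%) with a WT peak at 48 h (middle) and share (%) of WT-peak regions without a Myod1_KO peak (right). In the members H1_KO stands at 68.8% and the 3 H3-deleted lines between 43.8% and 47.4%, while the members' 78.7% in the right panel lies among the other groups.

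Of the 328 members with a WT peak, 29 had none in H1_KO (8.84%, 6.23 to 12.4), against 16.6% of all WT-peak regions. A peak was missing in 107 in H3_KO (32.6%, 27.8 to 37.9), against 26.5% of all WT-peak regions. In H23_KO it was missing in 115 (35.1%, 30.1 to 40.4), against 18.7%, and in H34_KO in 117 (35.7%, 30.7 to 41.0), against 18.6%. The double-deletion shares were the highest of the 15 combinations, where the others had at most 29.4% in H23_KO and 27.5% in H34_KO. Some of those groups were small, with as few as 34 WT-peak regions. The H3_KO share ranked 7 of 15. As with Myod1_KO, these shares were lower in regions of earlier onset, at 23.7% in both lines for 12 h-onset regions, at 98 (H23_KO) and 86 (H34_KO) of 575 for 6 h-onset regions, and at 3.45% (H23_KO) and 2.33% (H34_KO) for regions with a peak at all 6 times. The members exceeded 12 h-onset regions by 11.4 points (5.04 to 17.8) in H23_KO and by 12.0 points (5.63 to 18.4) in H34_KO.

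A peak in WT and H1_KO with none in the 3 H3-deleted lines was found in 41 of the 328 WT-peak members (95% interval 9.35% to 16.5%), against 4.92% of all WT-peak regions. The share was 7.68% in 12 h-onset regions, 4.70% in 6 h-onset regions and 0.729% in regions with a peak at all 6 times. The members were 4.82 points (0.658 to 9.34) above 12 h-onset regions. They ranked 1 of the 15 combinations, in which the others had 1.15% to 11.1%, and regions with peaks at 24 and 72 h ranked 1 under each of the 6 alternatives. The widest of the 41 shows the pattern: at chromosome 15, 63101752 to 63102728, the score was 6.11 at 24 h and 10.48 at 72 h, and −log10 p was 12.3 in H1_KO and 14.2 in WT, with no peak in Myod1_KO, H3_KO, H23_KO or H34_KO. The next 2 lay on chromosome X at 9682789 to 9683684 (−log10 p 8.54 in H1_KO and 10.6 in WT) and on chromosome 14 at 32021606 to 32022432 (17.1 in H1_KO and 25.3 in WT).

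Member peaks of the hotspot lines overlapped. Of the 391 members with an H23_KO peak and the 396 with an H34_KO peak, 297 were common (76.0% of the H23_KO and 75.0% of the H34_KO members, against 83.8% and 84.4% over all regions with a peak in those lines). H3_KO shared 277 with H23_KO (75.7% of H3_KO, 70.8% of H23_KO; 90.3% and 75.1% over all regions) and 260 with H34_KO (71.0% of H3_KO, 65.7% of H34_KO; 88.0% and 73.7% over all regions). Each pair of H3-deleted lines thus overlapped less in the members than over all regions. H1_KO, with the most members, held 91.0% of the H3_KO, 83.9% of the H23_KO and 81.6% of the H34_KO members, against 85.9%, 79.2% and 78.6% over all regions. These made up 57.9%, 57.0% and 56.2% of its own 575, against 71.1%, 78.8% and 77.7% over all regions. A peak in H1_KO and in none of the other hotspot lines was present in 133 members (15.9%), against 6.76% of all regions. The matching shares for a single H3-deleted line were 1.20% (H3_KO), 2.15% (H23_KO) and 3.83% (H34_KO) of members, against 0.946%, 3.47% and 3.97% of all regions. All 4 hotspot lines had a peak in 212 members (25.4%), against 37.1% of all regions.

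Across the 6 libraries at 48 h, the most frequent state was no peak in any, with 146 members (17.5%, against 19.2% of all regions). A peak in WT and all 4 hotspot lines with none in Myod1_KO came next, with 91 members (10.9%, against 10.8% of all regions). H1_KO alone followed with 87 members (10.4%, against 4.29% of all regions). A peak in all 6 libraries was present in 55 members (6.58%), against 18.7% of all regions. Of the 508 members without a WT peak, 32 had one in Myod1_KO (6.30%, against 8.25% of all regions without a WT peak) and 276 in H1_KO (54.3%, against 39.0%). In 12 h-onset regions without a WT peak these shares were 11.4% (Myod1_KO) and 61.6% (H1_KO).

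**Figure D3:**
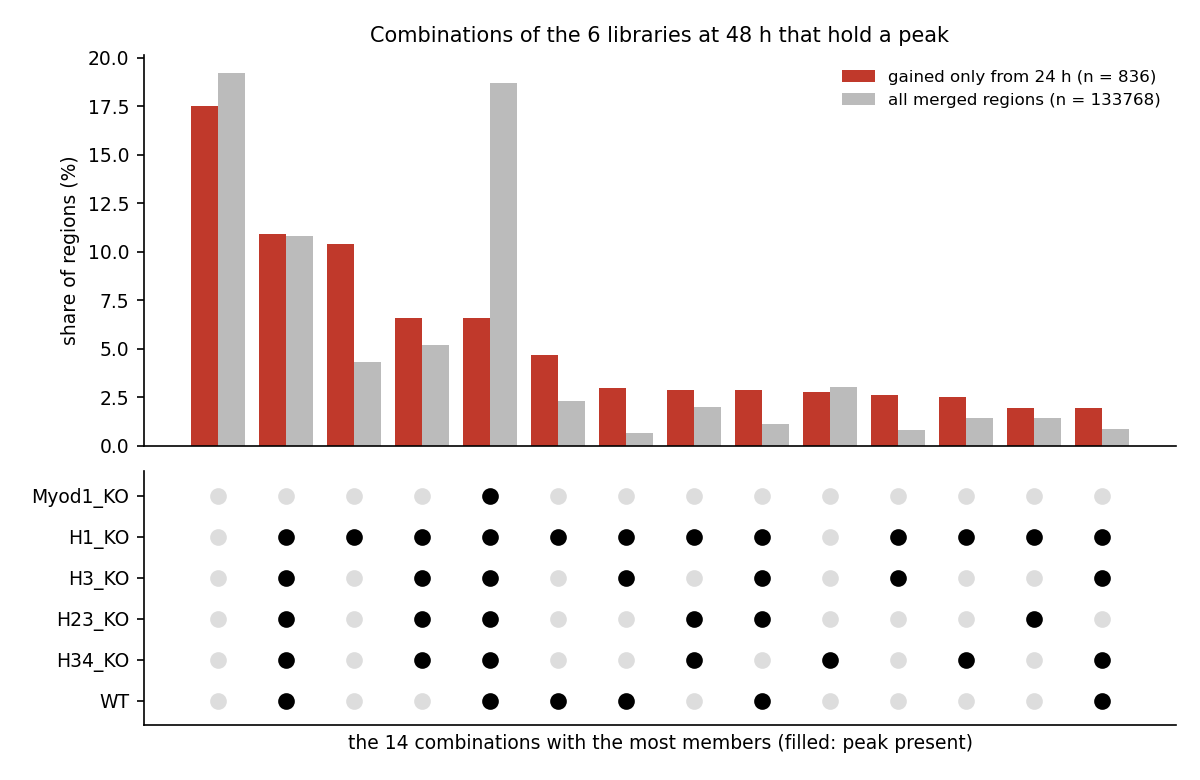
Share (%) of the members (red) and of all regions (grey) in the 14 combinations of the 6 libraries at 48 h that held the most members; filled circles mark the libraries with a peak. The members exceed all regions for H1_KO alone (10.4% against 4.29%) and are fewer where all 6 libraries have a peak (6.58% against 18.7%).

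Where the members had peaks at 48 h, these ranked highest in H1_KO. The median within-list percentile of −log10 p was 73.4 in H1_KO (95% interval 70.7 to 74.6), 61.7 in H3_KO, 59.8 in H23_KO, 54.2 in H34_KO and 45.3 in Myod1_KO, against 44.6 in WT (41.6 to 49.2). These are ranks within lists of different length, over different members, and do not show a change between libraries. In H1_KO 77 members lay in the top 10% of the list (13.4% of those with a peak there). That share was 13.6% in 12 h-onset regions, 17.6% in 6 h-onset regions and 47.7% in regions with a peak at all 6 times. The member peaks had a median width of 204 bp in Myod1_KO (234 bp over the list), 614 bp in H1_KO (293 bp), 479 bp in H3_KO (322 bp), 509 bp in H23_KO (349 bp) and 397 bp in H34_KO (326 bp), against 428 bp in WT (420 bp). A rank of this kind in H1_KO was shared with regions of earlier onset, whose medians were 72.2 (12 h-onset) and 76.7 (6 h-onset), as was the width there, at 575 bp (12 h-onset) and 614 bp (6 h-onset). In H34_KO the members' median of 54.2 (48.0 to 59.1) stood under the 63.2 of 12 h-onset and the 69.5 of 6 h-onset regions.

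**Figure D4:**
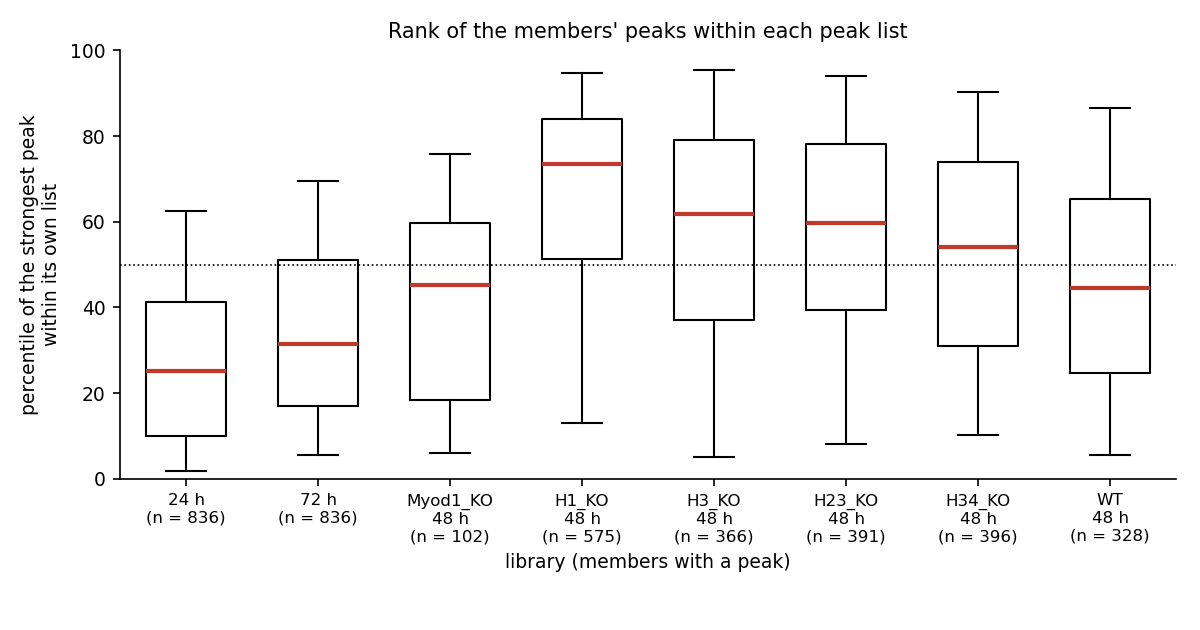
Within-list percentile of the strongest peak overlapping each member (score at 24 and 72 h, −log10 p at 48 h) in the lists that hold a member peak. Boxes are quartiles with the median in red, whiskers the 5th and 95th percentiles and the dotted line the middle of a list; medians are 25.2 at 24 h, 31.5 at 72 h, 73.4 in H1_KO and 44.6 in WT.

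State at 48 h differed more between widths than between scores at 24 and 72 h. Split by width into 4 groups of 209, the narrowest members (128 to 219 bp) had a Myod1_KO peak in 6.70% and an H1_KO peak in 49.3%, against a WT peak in 1.91%. The widest (485 to 2722 bp) had a Myod1_KO peak in 23.9% and an H1_KO peak in 89.0%, against a WT peak in 87.6%. This order is in part built in, since WT peaks enter the merging and a wider region is more readily overlapped by a peak of any list. By how much was not tested. Split by mean score percentile instead, the 4 groups had a Myod1_KO peak in 10.5% to 15.8%, and a WT peak in 31.1% to 45.9%.

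Single members show these states. The widest, 2722 bp at chromosome 15, 99718880 to 99721601, scored 11.12 at 24 h and 12.03 at 72 h. It had a peak in all 6 libraries at 48 h, with −log10 p of 6.44 in Myod1_KO, 34.2 in H1_KO, 10.0 in H3_KO, 10.6 in H23_KO and 23.1 in H34_KO, against 40.1 in WT. Its peak was thus at percentile 26.0 of the Myod1_KO list and 89.4 of the WT list.

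The other 4 of the 5 widest had no Myod1_KO peak. At chromosome 3, 54998563 to 55000662 (2100 bp), the scores were 6.89 at 24 h and 7.19 at 72 h, and −log10 p was 35.5 in H1_KO and 9.25 in H3_KO, against 17.4 in WT, with no peak in H23_KO or H34_KO. At chromosome 3, 8828779 to 8830856 (2078 bp), −log10 p was 39.5 in H1_KO, 62.6 in H3_KO, 28.5 in H23_KO and 19.7 in H34_KO, against 42.3 in WT. At chromosome 13, 63181051 to 63183081 (2031 bp), it was 26.2 in H1_KO, 46.4 in H3_KO, 26.1 in H23_KO and 33.4 in H34_KO, against 27.8 in WT. These 2 members had a peak in every hotspot line, whereas the chromosome 3 member before them had none in either double deletion. The fifth, on chromosome 18 at 47389535 to 47391475 (1941 bp), also had a peak in the 4 hotspot lines and WT. The fifth widest of the members with a WT peak and no Myod1_KO peak, at chromosome 3, 121042558 to 121044402 (1845 bp), had a 24 h score of 4.38, at percentile 0.305 of that list, and 8.26 at 72 h.

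Among the 70 members with a peak in both Myod1_KO and WT, the next widest after the chromosome 15 member lay on chromosome 13 at 29338883 to 29340808 and 36400246 to 36401979. Their −log10 p was 12.1 and 9.60 in Myod1_KO, against 39.5 and 52.5 in WT. The last of the 5, on chromosomes 18 (47479413 to 47481089) and 16 (85114068 to 85115733), had 9.60 and 7.04 in Myod1_KO, against 21.7 and 25.0 in WT. All 5 had a peak in the 4 hotspot lines. Median width was 652 bp for the 70, against 502 bp for the 258 members with a WT peak and none in Myod1_KO.

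The members that ranked highest at 24 and 72 h were not the widest. The first, at chromosome 4, 104946140 to 104946521 (382 bp), scored 14.31 at 24 h and 22.27 at 72 h, and at 48 h had a peak in H1_KO alone (−log10 p 5.59). The second, at chromosome 10, 24847197 to 24848243 (1047 bp), scored 12.01 at 24 h and 22.75 at 72 h. At 48 h its −log10 p was 17.1 in H1_KO and 6.30 to 7.85 in the H3-deleted lines, against 32.8 in WT. Another, at chromosome 6, 86914311 to 86914898, scored 11.27 at 24 h and 20.73 at 72 h and had a peak in every 48 h library except Myod1_KO. The remaining 2 (chromosome 13, 30291669 to 30292214, and chromosome 3, 21696597 to 21697171) each missed a peak in Myod1_KO and in 1 double-deletion line, H23_KO for the first and H34_KO for the second. None of these 5 had a Myod1_KO peak. Of the 146 members with no peak in any 48 h library, the widest were 546 bp (chromosome 17, 32489874 to 32490419), 533 bp (chromosome 18, 78835409 to 78835941) and 523 bp (chromosome 19, 47350698 to 47351220). The first scored 9.81 at 24 h and 8.11 at 72 h, the second 5.16 and 15.88, and the third 5.73 and 14.82.

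Some members lay close together. Another member lay within 12500 bp of 177 of the 836 (21.2%, 18.5 to 24.1). The share was 9.33% within 1 kb, 15.0% within 5 kb and 31.5% within 50 kb. When peaks within 1 kb were merged, 357 members were found and 5.32% of them lay within 12500 bp of another. The neighbour shares that follow were not computed under that merging. Of the regions next to a member along the chromosome, 4.07% were members too, 6.51 times their share of all regions (0.625%). The same ratio was 4.77 for 12 h-onset, 5.36 for 6 h-onset and 2.52 for reverse-pattern regions, so clustering was common to these classes. Late regions, with a 72 h peak but none at -24 or 0 h, made up 31.6% of the regions next to members. They made up 9.37% of all regions, 26.8% of the regions next to 12 h-onset and 23.5% of those next to 6 h-onset regions. Regions with a peak at all 6 times made up 12.3% of the members' neighbours, against 25417 of 133768 over all regions. That share was 14.7% next to 12 h-onset and 14.5% next to 6 h-onset regions.

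Most members were also near chromatin acetylated in myoblasts, but less often than regions of earlier onset. The nearest -24 or 0 h peak was at a median distance of 2256 bp, against 1271 bp for 12 h-onset and 774 bp for 6 h-onset regions. It lay within 12500 bp for 666 members (79.7%, 76.8 to 82.3), against 84.2% of 12 h-onset and 87.6% of 6 h-onset regions. Within 1 kb it lay for 295 members (35.3%), against 45.7% (12 h-onset) and 54.3% (6 h-onset). No share in this paragraph was computed for all regions, so it is not known whether members lay nearer such peaks than regions in general. With the 6 and 12 h peaks counted too, a peak from before 24 h lay within 1 kb of 527 members (63.0%). Such a peak lay within 12500 bp of 756 members (90.4%).

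Joining members within 12500 bp gave 83 clusters of at least 2, with 177 members, of which 10 held at least 3. Clustered members had an H1_KO peak in 73.4%, against 67.5% of the 659 that stood alone, an H34_KO peak in 39.5%, against 49.5%, and a WT peak in 33.3%, against 40.8%. The share without a Myod1_KO peak among those with a WT peak was 81.4% in clusters and 78.1% alone.

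The cluster with the most members, 4 over 23021 bp at chromosome 15, 10863474 to 10886494, had an H1_KO peak in all 4, an H34_KO peak in 1 and none in Myod1_KO, H3_KO or H23_KO, against a WT peak in 2. It was not empty before differentiation: 7 peaks at -24 h and 9 at 0 h lay between the members. H1_KO peaks covered 60.2% of it, H3_KO peaks 24.2%, H23_KO peaks 13.4%, H34_KO peaks 14.7% and Myod1_KO peaks 6.74%, against 27.4% for WT peaks.

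The next by span, 3 members over 20019 bp at chromosome 1, 136179933 to 136199951, held no peak at all at -24, 0, 6 or 12 h, and the nearest -24 or 0 h peak was 29001 bp away. It had 5 peaks at 24 h and 8 at 72 h. At 48 h the span had no peak in Myod1_KO or H34_KO and 1 in H23_KO, while peaks covered 58.7% of it in H1_KO and 12.1% in H3_KO, against 20.8% in WT. The first member of the 3 had a −log10 p of 31.1 in H1_KO and 11.8 in H3_KO, against 29.0 in WT, the second 23.2 in H1_KO against 13.9 in WT, and the third 36.7 in H1_KO, 21.7 in H3_KO and 7.80 in H23_KO, against 30.3 in WT.

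Over the whole lists, peaks covered 70.6 Mb in H1_KO, 58.4 Mb in H3_KO, 81.5 Mb in H23_KO and 73.0 Mb in H34_KO, against 45.4 Mb in WT. More coverage than in WT was thus general to the hotspot lists. Both the chromosome 15 and the chromosome 1 cluster had more coverage in H1_KO than in WT and less in each H3-deleted line than in WT. The third, on chromosome 8 at 46918251 to 46931069 (12.8 kb), shared the first feature but not the second, with coverage of 70.5% in H1_KO, 44.1% in H3_KO, 39.7% in H23_KO and 26.0% in H34_KO, against 28.4% in WT. It had 1 member with a Myod1_KO peak. The fourth, on chromosome 9 at 34905667 to 34917241, had no member with a WT peak and more coverage in the H3-deleted lines than in H1_KO, with 3.91% of its span covered in H1_KO, 6.42% in H3_KO, 18.9% in H23_KO and 8.68% in H34_KO, against 2.23% in WT. The fifth, on chromosome 15 at 25718139 to 25727147, also had no member with a WT peak but was covered to 75.6% in H1_KO, 1.91% in H3_KO, 12.4% in H23_KO and 26.9% in H34_KO, against 3.67% in WT.

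**Figure D5:**
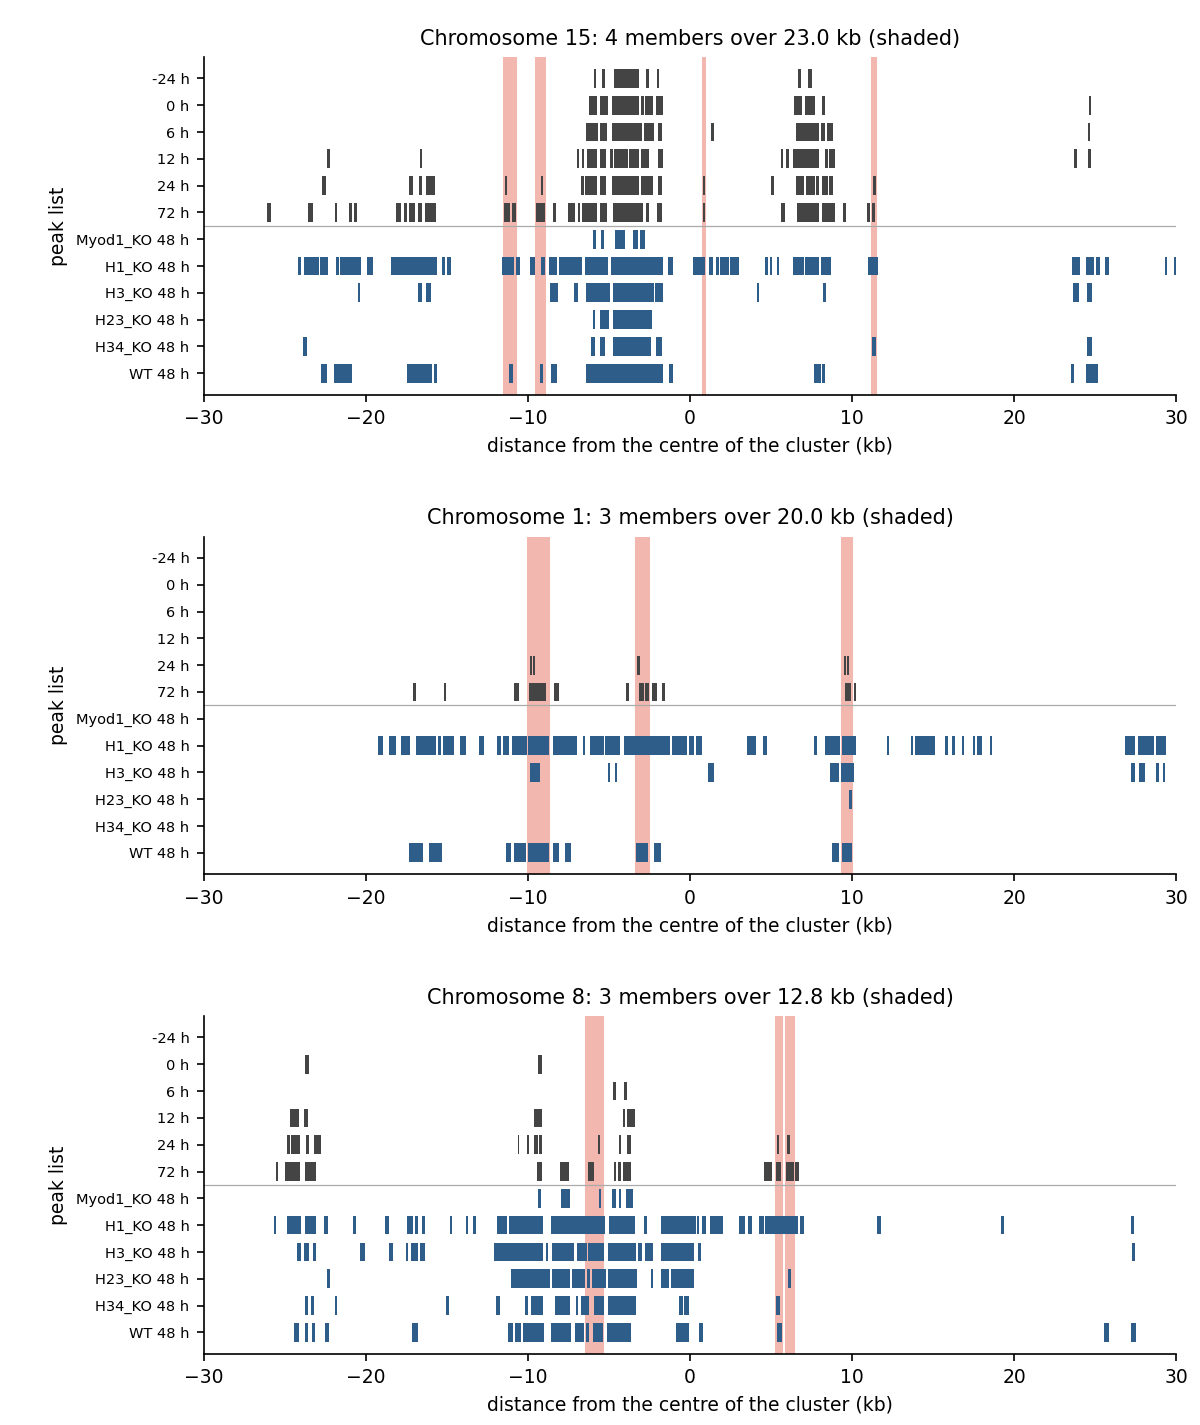
Peaks of the 6 time-course lists (dark grey) and the 6 lists at 48 h (blue) around 3 clusters, by distance from the cluster's centre (kb). They are the cluster with the most members and, of the 9 tied at 3 members, those with the largest spans. Shading marks members. On chromosome 1 no peak stands within the 20019 bp span at -24 to 12 h and 58.7% of the span is covered in H1_KO, against 20.8% in WT.

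By chromosome, the count was highest on chromosome 1, with 85 members (10.2% of members, against 7.29% of all regions), and chromosome 15, with 81 (9.69%, against 6.06%). Per 1000 regions, chromosome 15 had 9.99 members, chromosome 16 had 8.75 (41 members) and chromosome 1 had 8.72. Chromosome X held 6 (0.718%, against 1.65%).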

How the data were processed

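H3K27ac ChIP-seq peak lists of 12 of the 13 labelled samples were used, 1 library per condition. Per the submitters' processing notes, MACS2 2.1.0 was the peak caller and mm9 the mouse build. The sources used here name no aligner, control library or cutoff. The authors' 6 lists of the time course held a score per peak with no stated unit. Their deposited lists at 48 h held fold enrichment (a ratio) at the summit, −log10 p and −log10 q, of which −log10 p ranked peaks. Ranks and percentiles of these values were taken within a list. For single regions −log10 p is printed side by side for several lists, and does not measure a change between them.

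Peaks that overlapped by 1 base were merged over the 7 time-course lists. Shares carry 95% Wilson intervals, differences of shares Newcombe intervals and medians order-statistic intervals. Clusters joined members within 12500 bp, edge to edge. Named regions were the 5 widest members, the 5 with the highest mean score percentile and the 5 clusters with most members. Ties between clusters went to the larger span. The 5 widest with a WT peak and with or without a Myod1_KO peak were also named. So were the 3 widest with the H3-deletion pattern or with no 48 h peak. The members and lists were chosen with earlier results of these data known.

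No mm9 genome or annotation was used here, so genes are not named from positions and no sequence is given. Coordinates are mm9 and 1-based. Simulated peak lists were used to test the overlap and class code. Python 3.11.15, numpy 2.4.6, pandas 2.3.3, scipy 1.17.1 and matplotlib 3.10.9 were used. Alternatives were merging within 1 kb, leaving the 48 h list out of the merging, stricter lists (a score of at least 5, or q under 0.001), the strongest 55585 peaks of every list, 50% overlap, a common −log10 p of at least 4, and other clustering distances. Leaving out the 12 h list and weighting by WT −log10 p were chosen after the data were seen.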

Additional observations from a re-analysis of the deposited data

How the results depend on the processing

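With 1 library per condition, no spread between replicates is known, peaks near a cutoff may be called in one list and missed in another, and lists differ in length and cutoff. Of 68 alternative values for 11 results, 34 moved. The other 34 stayed within the counting interval of the reported value or, for the number of members, within 1.5 times it, where the number was 983 with the 48 h list left out of the merging, 796 with stricter lists and 1012 with equal numbers of strongest peaks. Counts, widths and shares have no direction to change, and the 1 result that has, a difference of shares, kept its sign under both of its alternatives. The cause of each move was not tested. No analysis paired by replicate was possible because each condition had 1 library.

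Merging within 1 kb gave 357 members with a median width of 875 bp, 52.1% with a WT peak and 5.32% within 12500 bp of another. With the 48 h list left out of the merging, the median width was 245 bp, peaks were present in 72.7% (H1_KO), 49.5% (H3_KO), 51.5% (H23_KO), 52.0% (H34_KO) and 48.3% (WT), and 24.8% were clustered. With equal numbers of strongest peaks, the width was 386 bp, the shares were 17.6% (Myod1_KO), 54.0% (H1_KO), 36.9% (H3_KO), 36.2% (H23_KO) and 32.4% (H34_KO), and 68.7% of WT-peak members had no Myod1_KO peak. Without the 12 h list in the choice, 1984 regions qualified, with a width of 374 bp, shares of 15.9% (Myod1_KO), 72.2% (H1_KO), 48.7% (H3_KO), 52.9% (H23_KO) and 53.2% (H34_KO), and 32.7% clustered. Stricter lists gave 42.8% in H23_KO. An overlap of 50% gave 63.5% (H1_KO), 42.3% (H23_KO) and 42.9% (H34_KO). Within 5 kb 15.0% of members were clustered, and within 50 kb 31.5%. The excess over regions with a peak at all 6 times in the share without a Myod1_KO peak, 60.4 points, was 54.0 points weighted by width and 46.0 points weighted by WT −log10 p. A common −log10 p of at least 4 moved no share of the 4 hotspot lines, and removes no peak from the Myod1_KO or WT list.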
